A study of Mus musculus with 12 samples.

Results

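The galectin transcripts Lgals1, Lgals3, Lgals8 and Lgals9 and the galectin-binding protein transcript Lgals3bp were followed across 12 hippocampal RNA-seq libraries of aged mice. These 5 genes of the 27833 in the table were chosen by name, with their measured differences between the PQQ groups and the CON group already known, so those differences are given below as a description and not as a test. All 5 were measured in every library and all 5 passed the filter on low values.

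Galectins are small carbohydrate-binding proteins that recognize galactose-containing glycans on the cell surface, in the extracellular matrix and inside damaged vesicles. Galectin-1, from Lgals1, acts as a dimer, galectin-3, from Lgals3, carries a single binding domain with a tail through which it oligomerizes, and galectin-8 and galectin-9, from Lgals8 and Lgals9, hold a pair of binding domains in tandem. Lgals3bp encodes a secreted, heavily glycosylated scavenger receptor family protein that binds galectin-3 and other galectins and is known as a target of interferons. In the brain, Lgals3 is best known from activated microglia and macrophages, and Lgals1 from astrocytes, vessels and the tissues at the border of the brain.

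All mice were male C57BL/6J of wild-type genotype, 20 months old, and all received 0.2 mL of normal saline by oral gavage for 14 days. The 3 CON libraries came from mice given saline alone, the 5 PQQ-L libraries from mice given pyrroloquinoline quinone (PQQ) at 5 mg/kg/day, and the 4 PQQ-H libraries from mice given 10 mg/kg/day. The study assigned 6 mice to each group, and the labels number the libraries without stating outright that each is a separate mouse, so the spread below is that between numbered libraries. No young group was measured, so no value here says how the genes change with age.

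The values are FPKM (fragments for each kilobase of a gene, relative to the total of its library), from 29654553 to 38179496 reads on genes per library. The tissue label was compared with marker lists, summed in FPKM unless stated otherwise. The mean log2(FPKM + 0.1) of 10 hippocampal neuron genes was 0.64 in CON 1, 2.30 in CON 3, 2.26 in PQQ-H 1 and 2.32 in PQQ-H 2, against 3.41 to 5.25 in the other 8 libraries. In CON 1 the hippocampal markers Lct, Spink8 and C1ql2 were at 0, 0.0695 and 0.183 FPKM. By these markers that library holds little of the labelled tissue. Prox1, Zbtb20, Neurod6, Fibcd1 and Tdo2 of the list were also lowest in CON 1, but Nrgn (1177 FPKM) and Wfs1 (26.3) were not. Summed in FPKM, a measure that Nrgn dominates, the list was at 1209 in CON 1 and 489 to 1538 over the 12 libraries. Genes of striatal medium spiny neurons were high in the 4 libraries with the lowest mean log2 level of the hippocampal list. They were at 3297 in CON 1, 1351 in CON 3, 2479 in PQQ-H 1 and 1319 in PQQ-H 2, against 37.8 to 178 in the other 8 libraries. Genes of the choroid plexus epithelium, the tissue that secretes cerebrospinal fluid, reached 1834 to 6062 in the CON libraries, 116 to 217 in PQQ-L and 89.0 to 108 in PQQ-H. The libraries therefore differed in tissue content beyond their labels, and the fold changes of the members are also given without the 4 libraries rich in striatal RNA. The levels, order, shares, list sums and likeness values below cover all 12 libraries. In bulk RNA, fewer cells of a type and less RNA per cell cannot be told apart.

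The stretches in front of the transcription start are shown for Lgals3, Lgals3bp and Lgals9, because 2 of them hold letters known from interferon-responsive promoters. The promoter table used here has no row for Lgals1. The sequences are the 250 bases before the start on the gene's strand, 5′ to 3′, from RefSeq on build GRCm38.p6, which differs from the mm39 build in the labels of the data. Lgals3bp lies at chr11:118401960-118402209 (minus strand), Lgals9 at chr11:78984925-78985174 (minus strand) and Lgals3 at chr14:47373610-47373859 (plus strand). Capitals mark 2 copies of GAAA with 2 free bases between them in Lgals9, AANNGAAA in Lgals3bp and GGGCGG in Lgals3, each on either strand.
Lgals3bp: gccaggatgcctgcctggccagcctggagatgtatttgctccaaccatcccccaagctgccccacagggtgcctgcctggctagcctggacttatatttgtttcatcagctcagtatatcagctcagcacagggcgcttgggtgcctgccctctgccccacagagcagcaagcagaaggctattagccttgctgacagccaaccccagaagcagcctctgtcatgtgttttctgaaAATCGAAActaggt
Lgals9: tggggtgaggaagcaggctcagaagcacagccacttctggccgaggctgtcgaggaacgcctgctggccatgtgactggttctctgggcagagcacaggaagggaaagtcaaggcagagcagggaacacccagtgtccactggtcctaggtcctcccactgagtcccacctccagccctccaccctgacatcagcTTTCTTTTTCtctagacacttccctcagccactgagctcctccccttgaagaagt
Lgals3: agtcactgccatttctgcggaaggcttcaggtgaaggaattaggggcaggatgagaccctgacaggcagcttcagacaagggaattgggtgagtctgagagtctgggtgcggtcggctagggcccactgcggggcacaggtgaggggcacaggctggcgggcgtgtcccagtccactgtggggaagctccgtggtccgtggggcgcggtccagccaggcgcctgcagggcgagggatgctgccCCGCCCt

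This spaced GAAA repeat, of the interferon-stimulated response element type, was found on either strand in 3.44% of 32851 promoter windows of 300 bases (250 before and 50 after the start). Lgals9 holds it at both position -55 and position 16, counted from the start, and the second site is shown with its neighbours from position 6 to position 33.
Lgals9 after the start: atagctgtggTTTCTGTTTCctagctca
AANNGAAA, which is contained in that repeat and is a shorter form read by interferon regulatory factors, was found in 23.9% of the windows. Lgals3bp holds it at -14, and Lgals9 at -151 besides the sites already counted. GGGCGG, the GC box, was in 35.7% of the windows and lay at -7 and 5 in Lgals3, whose window had a GC content of 67.0% and 18 CG pairs against medians of 52.7% and 7. The window of Lgals8 held none of the 3 motifs. The motifs were chosen after the data were seen, and a match describes letters only.

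Lgals1 was the most abundant member in 12 of 12 libraries and Lgals3 the least abundant in 12 of 12. Between them, the order differed by group. Lgals3bp stood above Lgals8 in 3 of 3 CON libraries, 3 of 5 PQQ-L libraries and 0 of 4 PQQ-H libraries. Lgals9 stood above Lgals8 in CON 1 and CON 3 and below it in the other 10 libraries. In the CON group, the mean FPKM of Lgals9 (11.2 ± 3.59, SD, n = 3) and of Lgals8 (10.8 ± 1.80, SD, n = 3) differed by less than their spread, and in PQQ-L the same held for Lgals3bp (9.20 ± 1.41, SD, n = 5) and Lgals8 (8.76 ± 0.462, SD, n = 5).

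**Figure D1:**
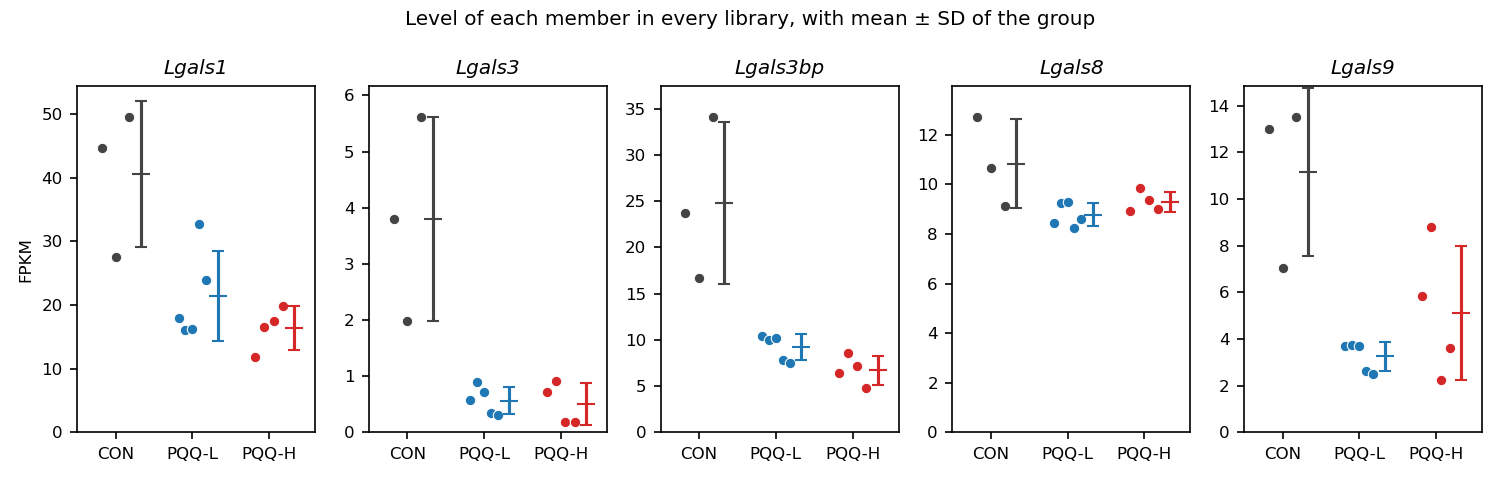
FPKM of each member (vertical axis, from 0, a scale for each gene) in the libraries of the CON (n = 3), PQQ-L (n = 5) and PQQ-H (n = 4) groups. Points are libraries, in the order of their numbers, and the bars give the mean ± SD of a group. For Lgals3 and Lgals3bp every PQQ library lies below every CON library, while for Lgals8 the groups overlap.

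Lgals3 had the largest difference in proportion. Its FPKM was 3.80 in CON 1, 1.99 in CON 2 and 5.61 in CON 3. It was 0.573, 0.894, 0.715, 0.344 and 0.313 in PQQ-L 1 to 5, and 0.728, 0.922, 0.182 and 0.187 in PQQ-H 1 to 4. Every PQQ library was thus below the lowest CON library, CON 2. The CON mean of 3.80 ± 1.81 (SD, n = 3) compared with 0.568 ± 0.247 at the low dose (SD, n = 5) and 0.505 ± 0.378 at the high dose (SD, n = 4). Against CON, the log2 fold change was -2.51 (SE 0.50) for PQQ-L and -2.81 (SE 0.53) for PQQ-H. The level is low, resting on 83 to 264 reads in the CON libraries and 9 to 48 reads in the PQQ libraries. All fold changes are from limma on log2(FPKM + 0.1), which understates the change of a gene this low.

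Within the PQQ groups Lgals3 was not uniform. PQQ-H 1 and PQQ-H 2, which are rich in striatal RNA, had 36 and 42 reads, and PQQ-H 3 and PQQ-H 4 had 9 reads each. The part of the striatal RNA in this split was not tested.

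Lgals3bp, whose protein is a ligand of galectin-3, was lower in all 9 PQQ libraries than in any CON library. The CON libraries had 23.7, 16.7 and 34.1 FPKM. PQQ-L 1 to 5 had 10.4, 10.0, 10.2, 7.81 and 7.51, and PQQ-H 1 to 4 had 6.38, 8.55, 7.15 and 4.80. The lowest CON value was again in CON 2, and the lowest of all was in PQQ-H 4. Its CON mean was 24.8 ± 8.74 (SD, n = 3), beside 9.20 ± 1.41 at the low dose (SD, n = 5) and 6.72 ± 1.57 at the high dose (SD, n = 4). The log2 fold change against CON was -1.38 (SE 0.23) at the low and -1.84 (SE 0.24) at the high dose. With 377 to 2622 reads a library, counting error was small beside the spread between libraries.

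Lgals9, whose protein holds paired domains and binds the immune receptor TIM-3, separated the low dose from CON and not the high dose. It had 12.99, 7.04 and 13.5 FPKM in CON 1 to 3, and 3.72, 3.73, 3.70, 2.63 and 2.51 in PQQ-L 1 to 5. It had 5.83, 8.80, 2.24 and 3.63 in PQQ-H 1 to 4. All PQQ-L libraries were below the CON libraries, but PQQ-H 2 was above CON 2. The mean of the PQQ-H group was 5.12 ± 2.86 (SD, n = 4), against 3.26 ± 0.627 (SD, n = 5) in PQQ-L, and the log2 fold change against CON was -1.71 (SE 0.38) at the low dose and -1.23 (SE 0.39) at the high dose. The 2 PQQ-H libraries with the higher Lgals9 were those rich in striatal RNA, and the part of that RNA in the difference was not tested.

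Lgals1, which encodes the dimeric galectin-1, separated the high dose from CON and not the low dose. It had 44.7, 27.6 and 49.5 FPKM in CON, 18.03, 16.0, 16.3, 32.7 and 24.0 in PQQ-L 1 to 5, and 11.8, 16.6, 17.4 and 19.9 in PQQ-H 1 to 4. PQQ-L 4 lay above CON 2, so the PQQ-L and CON groups overlapped, while all PQQ-H libraries lay below CON. The means were 40.6 ± 11.5 for CON (SD, n = 3), 21.4 ± 7.08 for PQQ-L (SD, n = 5) and 16.4 ± 3.41 for PQQ-H (SD, n = 4). Against CON, its log2 fold change was -0.93 (SE 0.27) with the low dose and -1.28 (SE 0.28) with the high dose.

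Lgals8, the galectin known for marking damaged endosomes and lysosomes for autophagy, had the smallest difference. It had 12.7, 10.7 and 9.11 FPKM in CON, 8.25 to 9.27 in PQQ-L with a median of 8.62, and 8.93, 9.84, 9.37 and 9.02 in PQQ-H. CON 3 lay within the range of both PQQ groups. The CON mean was 10.8 ± 1.80 (SD, n = 3), that of PQQ-L 8.76 ± 0.462 (SD, n = 5) and that of PQQ-H 9.29 ± 0.415 (SD, n = 4), with log2 fold changes against CON of -0.29 (SE 0.10) and -0.21 (SE 0.10).

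**Figure D2:**
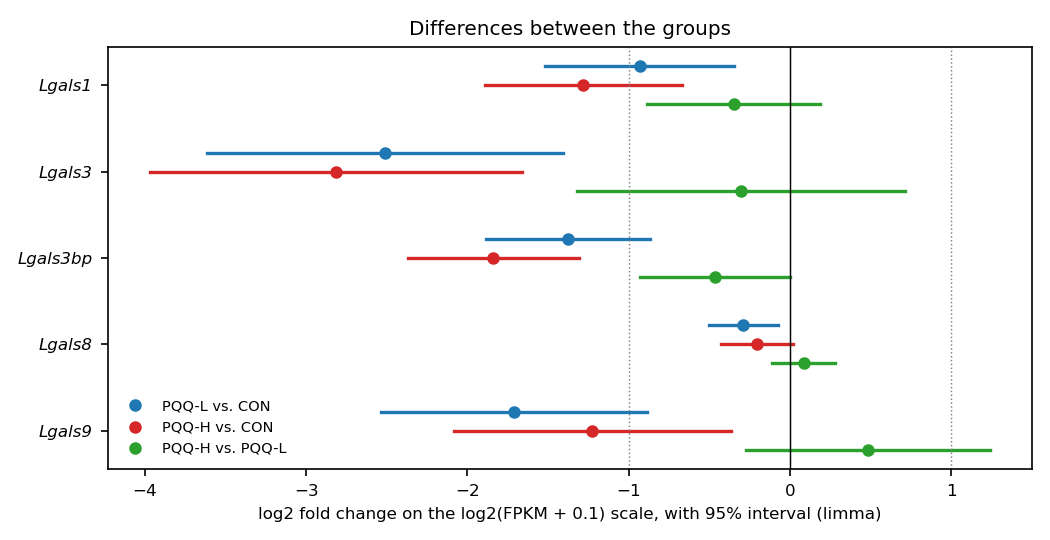
Log2 fold change of each member (horizontal axis, log2(FPKM + 0.1) scale) for either dose against CON and for PQQ-H against PQQ-L, each point with its 95% interval from limma over 12 libraries. The dotted lines mark a log2 fold change of 1 in either direction. Lgals3 lies farthest from 0 in both comparisons with CON, at -2.51 and -2.81, and the 5 intervals between the doses all include 0.

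A gene was called where |log2FC| was above 1 and the Benjamini-Hochberg adjusted p of limma, taken across 13796 genes whose FPKM averaged 0.5 or more, was below 0.05. At the low dose against CON, 1 of the 5 members was called, Lgals3bp, where 0.471% of all genes were called lower. In PQQ-H vs. CON, 2 were called, Lgals3 and Lgals3bp, where 0.819% of all genes were called lower. At an unadjusted p below 0.05, 5 members were lower in PQQ-L (11.6% of all genes) and 4 in PQQ-H (7.88% of all genes), Lgals8 being the exception. The libraries did not overlap for 3 members in PQQ-L, namely Lgals3, Lgals3bp and Lgals9 (7.66% of all genes were lower without overlap), and for 3 in PQQ-H, namely Lgals1, Lgals3 and Lgals3bp (5.72% of all genes). Since these contrasts chose the members, the counts are not read against those shares. The median log2 fold change of the members was -1.38 for the low dose and -1.28 for the high dose, and that of all genes -0.03 in both. The comparisons share the CON libraries.

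The counts depended on single CON libraries. Without CON 2, the CON library lowest in Lgals1, Lgals3, Lgals3bp and Lgals9, 4 members were called at the low dose and 3 at the high dose. Without CON 1 or CON 3 the counts were 0 and 1. The counts over all genes moved as well. They were 65 and 113 with all 12 libraries, 865 and 136 without CON 2, 20 and 58 without CON 1, and 33 and 47 without CON 3. When the 4 libraries rich in striatal RNA were left out, 0 members were called in either comparison, with CON 2 alone standing for the CON group and assumed to vary like the other groups. Over all genes that fit called 1 and 5, with 385 and 1080 lower at an unadjusted p below 0.05. The log2 fold changes were then -1.73 for Lgals3, -0.87 for Lgals3bp, -1.11 for Lgals9, -0.42 for Lgals1 and -0.28 for Lgals8 in PQQ-L vs. CON. In PQQ-H vs. CON they were -2.88 for Lgals3, -1.49 for Lgals3bp, -1.27 for Lgals9, -0.56 for Lgals1 and -0.21 for Lgals8.

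The PQQ-L libraries fell into 2 sets by the first letter of their library names, whose meaning the labels do not give. In the 3 whose names open with R, Lgals3bp was at 10.0 to 10.4 FPKM and Lgals9 at 3.70 to 3.73, against 7.51 to 7.81 and 2.51 to 2.63 in the 2 whose names open with L. Lgals1 went the other way, from 16.0 to 18.03 with R against 24.0 and 32.7 with L. Among the libraries named with L alone (2 CON, 2 PQQ-L and 3 PQQ-H), the log2 fold changes of Lgals3 against CON were -3.01 at the low dose and -2.48 at the high dose, and those of Lgals3bp -1.63 and -1.69. Those of Lgals9 were -1.88 and -0.99, those of Lgals1 -0.40 and -1.29, and those of Lgals8 -0.22 and -0.07. Among the libraries named with R (CON 1, PQQ-L 1 to 3 and PQQ-H 4), the log2 fold changes at the low and the high dose were -2.26 and -3.76 for Lgals3, -1.21 and -2.28 for Lgals3bp, -1.78 and -1.81 for Lgals9, -1.41 and -1.16 for Lgals1, and -0.50 and -0.49 for Lgals8. That fit was chosen after seeing the data. Its spread was taken from the 3 PQQ-L libraries alone, and the lone CON and PQQ-H libraries were assumed to vary like them. CON 1, its only CON library, had the highest striatal level of all 12 libraries and the lowest mean log2 level of the hippocampal list.

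PQQ-H vs. PQQ-L is the contrast that did not choose the members. Of the 5, 0 were called, where 0.0% of all genes were called in either direction, and 0 had an unadjusted p below 0.05, where 8.15% of all genes did. The same test on whole reads recovered from the FPKM (limma with voom) also called 0. The log2 difference was -0.35 for Lgals1 (95% interval -0.89 to 0.19), -0.30 for Lgals3 (-1.32 to 0.71), -0.46 for Lgals3bp (-0.93 to 0.0019), 0.08 for Lgals8 (-0.11 to 0.28) and 0.49 for Lgals9 (-0.27 to 1.24). The adjusted p of limma ran from 0.580 to 0.794. The intervals of Lgals1, Lgals3, Lgals8 and Lgals9 leave room for a difference in either direction. That of Lgals3bp reaches only 0.0019 above 0 (limma, unadjusted p = 0.0508, adjusted p = 0.580). A difference in dose response was not detectable with these libraries after adjustment. Without the 4 libraries rich in striatal RNA, the log2 difference between the doses was -0.14 for Lgals1, -1.15 for Lgals3, -0.63 for Lgals3bp, 0.07 for Lgals8 and -0.16 for Lgals9, and 0 members were called (limma, adjusted p from 0.372 to 0.814).

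The make-up of the galectin RNA was compared as each gene's share of the summed FPKM of Lgals1, Lgals3, Lgals8 and Lgals9. That sum was 74.2, 47.3 and 77.7 in CON, 29.9 to 43.9 in PQQ-L and 27.3 to 36.2 in PQQ-H. Lgals3 made up 5.13%, 4.21% and 7.22% of it in CON, 0.783% to 2.99% in PQQ-L and 0.571% to 2.67% in PQQ-H. Lgals8 made up 11.7% to 22.6% in CON, 18.8% to 30.9% in PQQ-L and 27.2% to 32.8% in PQQ-H. The share of Lgals3 was lower in each PQQ library than in any CON library, and the share of Lgals8 was higher in each PQQ-H library than in any CON library. The share of Lgals9 was highest in PQQ-H 2, at 24.3%, and PQQ-H 1, at 21.4%, above the 14.9% to 17.5% of the CON libraries.

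**Figure D3:**
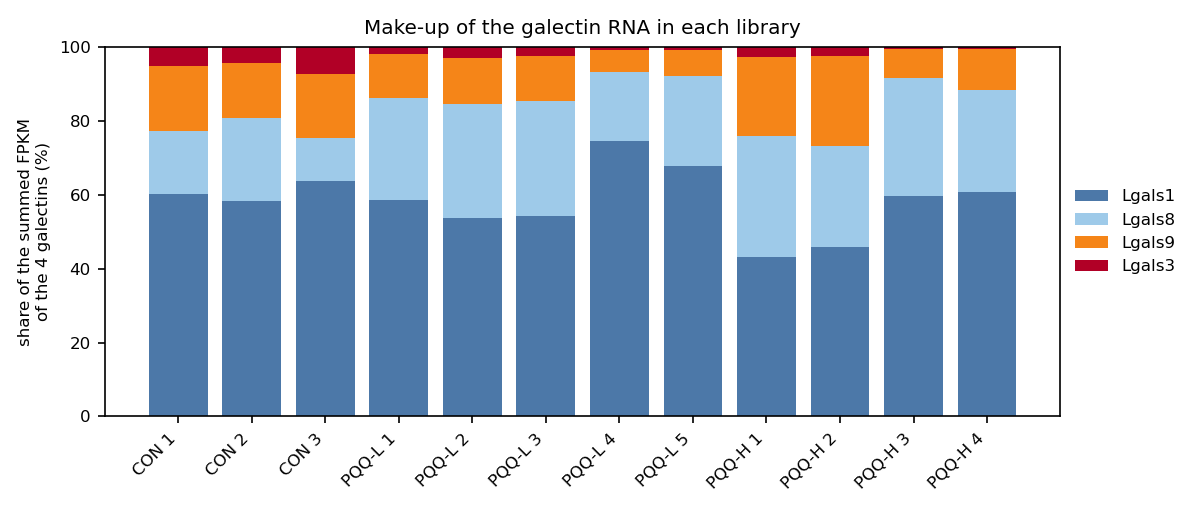
Share (vertical axis, percent) of Lgals1, Lgals8, Lgals9 and Lgals3 in their summed FPKM, 1 bar for each of the 12 libraries. Lgals3, at the top of the bars, takes 4.21% to 7.22% of a CON library and no more than 2.99% of a PQQ library.

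The other galectin genes stayed low or showed no separation. Lgalsl, which encodes a galectin-related protein that lacks sugar binding, had 18.005 to 24.8 FPKM in all 12 libraries, and its groups overlapped. Lgals4 had 0.982 to 1.58 in CON, 0.613 to 1.14 in PQQ-L and 0.612 to 1.48 in PQQ-H, although a near-identical copy could share its reads. Neither of these 2 genes was called, nor did either have an unadjusted p below 0.05. Lgals2, Lgals7, Lgals12 and Grifin were under the filter. Of these, Lgals12 had 18 to 30 reads in the CON libraries, 6 to 12 in PQQ-L and 1 to 17 in PQQ-H, with no overlap between CON and either dose. In FPKM, Lgals7 and Grifin did not overlap between CON and PQQ-L either. Lgals7 had 1 to 12 reads in CON and 0 to 1 in PQQ-L, and Grifin 5 to 24 and 2 to 5. The shares of all genes without overlap cover only genes past the filter, so none stands beside these.

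Genes that act with galectins were followed through 4 lists of 55 genes, of which 54 were in the table and 47 passed the filter, the other galectins included. In PQQ-L vs. CON, 0 of the 47 were called by limma, where 0.471% of all genes were called lower. At an unadjusted p below 0.05, 6 were lower and 2 higher, where 11.6% of all genes were lower and 8.92% higher. In PQQ-H vs. CON, 0 were called by limma, where 0.819% of all genes were called lower. At an unadjusted p below 0.05, 8 were lower and 0 higher, where 7.88% of all genes were lower and 1.85% higher. With voom, 0 of them were called in either comparison. The median log2 fold change of the 47 was -0.07 in both comparisons, beside -0.03 for all genes and -1.38 and -1.28 for the members.

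Of 17 galectin receptors and ligands tested, 4 were lower in PQQ-L at an unadjusted p below 0.05 (11.6% of all genes) and 5 in PQQ-H (7.88% of all genes), with median log2 fold changes of -0.26 and -0.20. These and the next genes are named because their counts were small, after their values were seen. They were Itga3, Itgb1, Lamp1 and P4hb in PQQ-L, and Cd44, Itga3, Itgb1, Lamp2 and Pdpn in PQQ-H. Itgb1, the integrin beta chain that galectin-1 and galectin-3 bind, had 17.6 to 22.3 FPKM in CON, 13.6 to 17.1 in PQQ-L and 12.8 to 16.7 in PQQ-H. Its CON libraries lay above those of either dose, and the doses overlapped, with log2 fold changes of -0.38 (limma, adjusted p = 0.187) and -0.41 (limma, adjusted p = 0.188). Cd44, a hyaluronan receptor and ligand of galectin-9, had 0.82 to 1.44 FPKM in CON and 0.17 to 0.31 in PQQ-H, with a log2 fold change of -1.75 (limma, adjusted p = 0.0711), while PQQ-L overlapped CON. Havcr2, which encodes TIM-3, had log2 fold changes of -0.26 and 0.03 (limma, adjusted p = 0.458 and 0.977).

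The damaged-lysosome genes, which act where galectin-3, galectin-8 and galectin-9 bind exposed glycans, numbered 17 tested, with a median log2 fold change of -0.06 at the low dose and -0.04 at the high dose. In PQQ-L, Chmp4b, of the membrane repair machinery, was lower at an unadjusted p below 0.05, and Slc38a9 and Ube2ql1 were higher. In PQQ-H, Mcoln1, the lysosomal calcium channel, and Optn, an autophagy receptor, were lower at that threshold. Their log2 fold changes all lay between -0.46 and 0.48. Of the 11 N-glycan enzymes tested, which build or mask galectin ligands, B3gnt2 was lower in PQQ-L (log2 fold change -0.74) and B4galt1 in PQQ-H (-0.50) at that threshold. B3gnt2 had 26.2 FPKM in CON 1 and 19.6 in CON 3, but 9.26 in CON 2, below the 9.35 to 10.9 of PQQ-L. The part of the striatal RNA in these differences was not tested. Mgat5, which adds the branch that galectin-3 favours, had log2 fold changes of 0.29 and -0.04 (limma, adjusted p = 0.287 and 0.950).

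**Figure D4:**
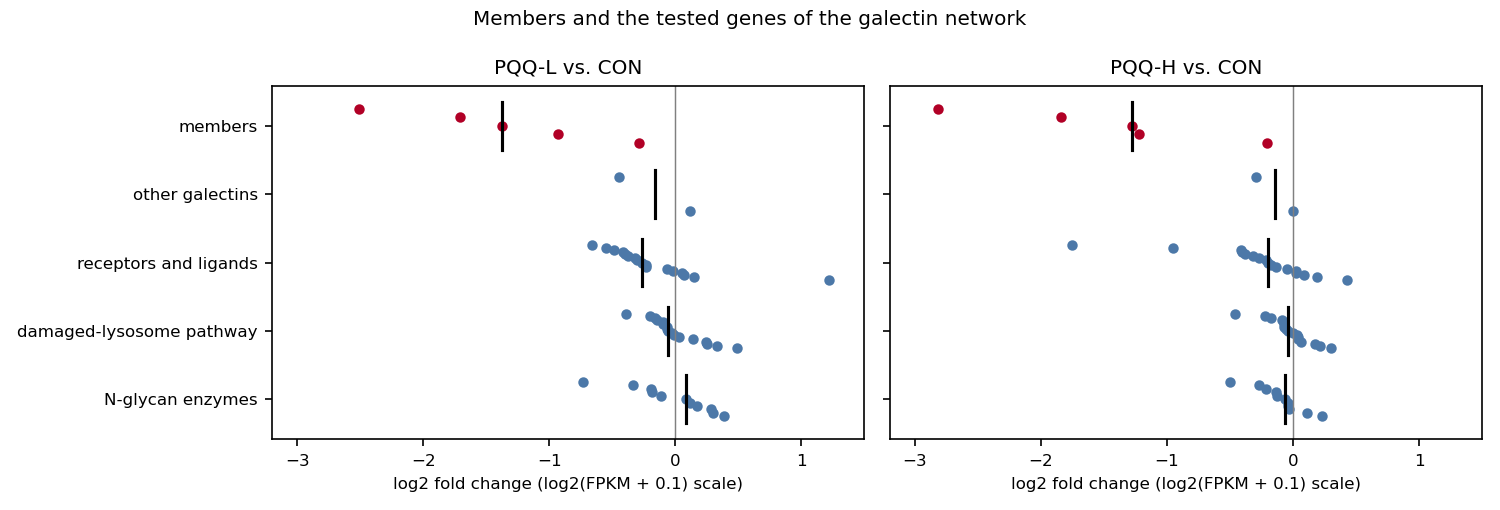
Log2 fold change (horizontal axis, log2(FPKM + 0.1) scale) of the 5 members and of the tested genes of 4 lists of galectin partners, for each dose against CON. Each point is a gene and each vertical bar the median of its list. The medians of the members are -1.38 and -1.28, and those of the receptors, damaged-lysosome genes and N-glycan enzymes lie between -0.26 and 0.08.

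The levels of cell type and response lists were set beside the members, with the PQQ groups given after the CON group. The choroid plexus list was lower for 23 of 23 genes tested in both comparisons. Of these, 18 were called in PQQ-L and 20 in PQQ-H, where 0.471% and 0.819% of all genes were called lower. Its first marker, Ttr, the transthyretin gene, had 1499 to 5315 FPKM in CON and 12.8 to 113 in the PQQ libraries. Some genes of the list passed the filter through CON alone, so their being lower followed from the filter. Wfdc2, for example, had 1.37 to 10.1 FPKM in CON and 0 to 0.0433 in the PQQ libraries. CON 2, which had the lowest Lgals1, Lgals3, Lgals3bp and Lgals9 of the CON libraries, also had the lowest choroid plexus level of them, at 1834. This was not particular to the choroid plexus list. By summed FPKM, CON 2 was also lowest for homeostatic microglia (176), disease-associated microglia (173), endothelium (106), oligodendrocytes (1148) and striatal neurons (53.9). It was not lowest for the meningeal fibroblast, ependyma, border macrophage and astrocyte lists.

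The interferon response list, which Lgals3bp and Lgals9 are known to follow in other settings, summed to 119 to 244 FPKM in CON, 73.0 to 86.0 in PQQ-L and 65.6 to 104 in PQQ-H. All 14 of its tested genes were lower in both comparisons, 1 called in PQQ-L (0.471% of all genes) and 4 in PQQ-H (0.819% of all genes). Bst2, an interferon-induced membrane protein of that list, had 12.4 to 35.6 FPKM in CON and 4.57 to 6.49 in the PQQ libraries. MHC class II genes summed to 20.4 to 39.7 in CON, 5.26 to 8.04 in PQQ-L and 3.79 to 13.6 in PQQ-H. The members, the interferon list and the MHC class II list were thus all lowest among the CON libraries in CON 2, Lgals8 excepted. The lists named above as lowest in CON 2 shared this.

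Homeostatic microglia genes summed to 176 to 252 FPKM in CON, 168 to 212 in PQQ-L and 205 to 276 in PQQ-H, with 0 of 11 tested genes called and 0 lower at an unadjusted p below 0.05 in either comparison. Of the 11, 9 were lower in PQQ-L and 9 were higher in PQQ-H. In PQQ-H, 2 were higher at an unadjusted p below 0.05, where 1.85% of all genes were. Disease-associated microglia genes, a state known for high Lgals3, summed to 173 to 232 in CON, 153 to 165 in PQQ-L and 141 to 183 in PQQ-H, so PQQ-L lay below CON and PQQ-H overlapped it. Of its 11 tested genes 0 were called. At an unadjusted p below 0.05, 3 were lower in PQQ-L (11.6% of all genes) and 2 in PQQ-H (7.88% of all genes). Without overlap, 2 were lower in PQQ-L (7.66% of all genes), Ccl6 and Cd63, the latter at 43.5 to 50.1 FPKM against 63.4 to 99.6 in CON. Trem2 and Clec7a were lower in CON 2 than in every PQQ-L library, so the lower sum in PQQ-L is not shared by all genes of the list. Border macrophage genes summed to 4.66 to 5.50 in CON, 3.26 to 4.31 in PQQ-L and 3.46 to 5.66 in PQQ-H, again with PQQ-L below CON, and 0 of 3 tested genes were called. Meningeal fibroblast genes summed to 32.8 to 79.7, 22.8 to 63.2 and 16.6 to 22.1, and ependyma genes to 47.3 to 69.0, 23.9 to 48.5 and 11.9 to 33.4, and for both lists PQQ-H lay below CON while PQQ-L overlapped it. Of the 13 meningeal genes tested, 1 was called lower in PQQ-L and 3 in PQQ-H. For the 8 ependymal genes the counts were 0 and 3, with 4 and 8 lower at an unadjusted p below 0.05. Over all genes, 0.471% and 0.819% were called lower, and 11.6% and 7.88% were lower at that unadjusted p. Oligodendrocyte genes summed to 1148 to 2805, 1008 to 1703 and 972 to 2624. Astrocyte genes summed to 400.2 to 514, 532 to 610.4 and 444 to 570.3, so PQQ-L lay above CON and PQQ-H overlapped it. Of the 8 astrocyte genes, 7 were higher in PQQ-L and 5 in PQQ-H. Endothelial genes summed to 106 to 161, 108 to 125 and 102 to 173 and overlapped between groups. All 8 of them were lower in both comparisons, where 53.9% and 55.6% of all genes were lower. Of either list, 0 of 8 genes were called. The part of each of these cell types in the members' levels was not tested.

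The choroid plexus level does not overlap between CON and the PQQ groups, so the group and that level cannot be told apart. A further fit took the choroid plexus level as a covariate, here the mean log2(FPKM + 0.1) of the 23 tested genes of the list and not their sum. The log2 fold changes in PQQ-L vs. CON were then -0.15 for Lgals1, -0.22 for Lgals3, 0.37 for Lgals3bp, -0.63 for Lgals8 and -0.19 for Lgals9. In PQQ-H vs. CON they were -0.29, 0.10, 0.39, -0.64 and 0.72 for the same genes. No member and no other gene was called by limma in that fit, where 139 genes were lower and 191 higher at an unadjusted p below 0.05 with the low dose, and 98 lower and 155 higher with the high dose. With the striatal level as a covariate, a mean taken the same way, the values were -0.99, -1.67, -1.12, -0.26 and -1.05 in PQQ-L. In PQQ-H they were -1.30, -2.54, -1.76, -0.20 and -1.02. The striatal fit called 0 members in PQQ-L and 4 in PQQ-H, and 42 and 142 of all genes. Both the members and the covariate were measured in the same libraries.

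**Figure D5:**
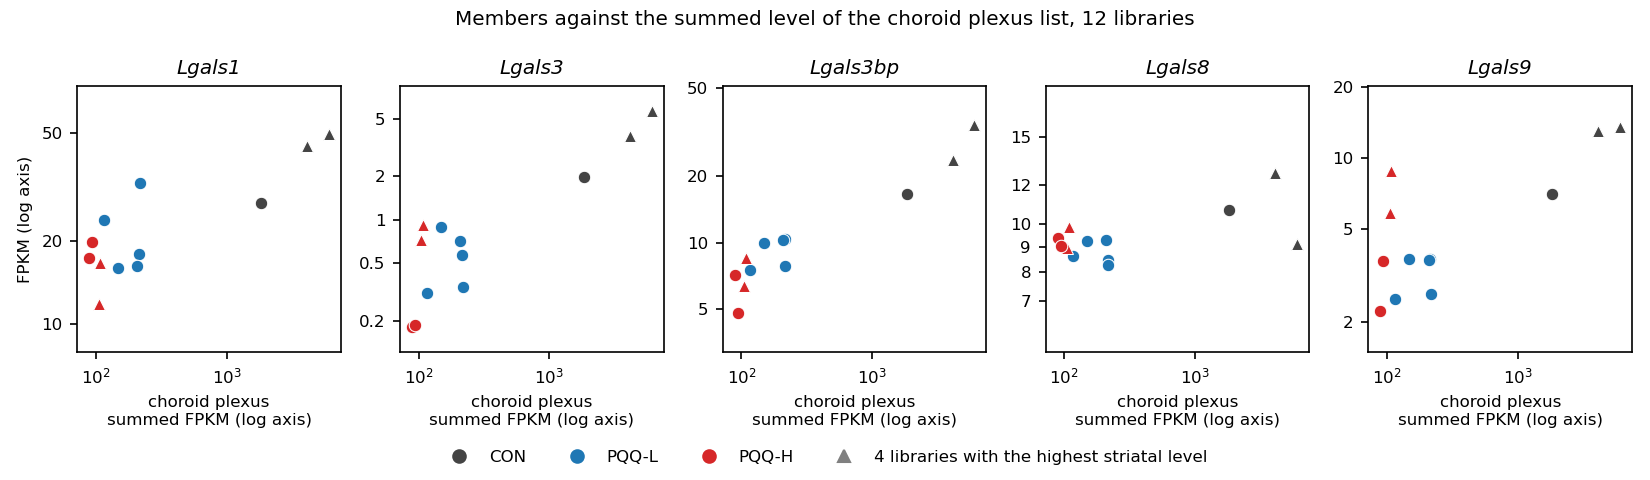
FPKM of each member (vertical axis, log scale) against the summed FPKM of the choroid plexus list (horizontal axis, log scale) in the 12 libraries, coloured by group. Triangles are the 4 libraries with the highest striatal level. The CON libraries stand at 1834 to 6062 on the horizontal axis and no PQQ library is above 217, and for Lgals3 and Lgals9 the PQQ-H triangles lie above the PQQ-H circles.

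Likeness between genes was measured as Pearson's r of log2(FPKM + 0.1) over the 12 libraries and is given as a description, since the points share their groups, tissue content and depth. Among the members, Lgals3 was most like Lgals3bp (r = 0.935) and Lgals9 (r = 0.908), and after the group means were subtracted the values were 0.760 and 0.920. Lgals1 followed Lgals3 less closely, with r = 0.609 over the 12 libraries and -0.298 within the groups. Lgals8 had r between 0.375 and 0.648 with the others.

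Over all tested genes, those most like Lgals3 were Cpt2 (r = 0.988), H2-Q4 (0.984) and Tgfbi (0.976), of which Cpt2 encodes a mitochondrial fatty acid oxidation enzyme and H2-Q4 a class I histocompatibility antigen. Sema3b (0.986), a secreted semaphorin, Rab11fip1 (0.976) and Ecrg4 (0.974), a gene of high level in choroid plexus, were most like Lgals3bp. The FPKM of Ecrg4 was 49.2 ± 25.7 for CON (SD, n = 3), 3.05 ± 1.40 for PQQ-L (SD, n = 5) and 0.946 ± 0.711 for PQQ-H (SD, n = 4). Aldh2 (0.977), Bcam (0.974) and Tmbim6 (0.971) were most like Lgals9, and Kctd11 (0.937), Pa2g4 (0.929) and Frmpd1os (0.920) most like Lgals1. For Lgals8 they were Tcf7l2 (0.946), Tnnt1 (0.944) and Aspscr1 (0.937). Tcf7l2, a transcription factor known from the thalamus, had 6.70 ± 6.35 FPKM (SD, n = 3) in CON and 1.02 ± 0.256 (SD, n = 5) in PQQ-L, and the thalamic part of the Lgals8 level was not tested.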

How the data were processed

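Hippocampal RNA was extracted with TRIzol and sequenced on an Illumina NovaSeq instrument. Reads were filtered with fastp, mapped with HISAT2 (the labels name mm39) and counted with HTSeq-count by the authors, who tested them with DESeq2 and deposited FPKM for 27833 genes in 1 table. Strandedness was not given in the sources used here. Whole reads were recovered from the FPKM for 100% of 25563 genes above 0 in at least 2 libraries (tolerance 0.02 reads) and cover counting error only.

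Genes averaging 0.5 FPKM or more entered limma 3.58.1 (R 4.3.3) as log2(FPKM + 0.1) (moderated test with trend, all 12 libraries, 13796 genes, Benjamini-Hochberg). Groups came from the labels. Tables and figures were made in Python 3.11.15 with pandas 2.3.3, numpy 2.4.6, scipy 1.17.1 and matplotlib 3.10.9, and the limma and recovery steps were tested on simulated data. No pair of libraries was a duplicate (over 19 pairs within groups, chi-square divided by its degrees of freedom was at least 18.76).

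The members, the 17 gene lists and the motifs were chosen with earlier results of these data known. Named genes were the members, the other galectins, up to 3 defining genes and up to 4 called genes of a list, and the 3 genes with the highest r to each member. There were 14 alternative settings, 12 fits lacking 1 library each, and 3 settings on striatal level and the name letter R chosen after seeing the data.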

Additional observations from a re-analysis of the deposited data

How the results depend on the processing

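In PQQ-L vs. CON, where 1 member was called, the count was 2 with a pseudocount of 1 and with quantile normalization, 3 with voom on the recovered reads and with only the 2 groups compared, and 0 with array quality weights, with the libraries named with L alone, with the choroid plexus level as a covariate, and with the striatal level as a covariate or the 4 striatum-rich libraries left out (both chosen after seeing the data). With 1 library left out it ran from 0 (without CON 1, CON 3, PQQ-L 1, PQQ-L 4 or PQQ-L 5) to 4 (without CON 2), with 3 without PQQ-H 2 or PQQ-H 3. In PQQ-H vs. CON, where 2 were called, it was 1 with array quality weights and with the name letter as a covariate, 4 with the striatal level as a covariate, and 0 with the libraries named with L alone, the choroid plexus covariate, only the 2 groups compared or the 4 libraries left out, and it ran from 1 (without CON 1, CON 3, PQQ-L 1, PQQ-H 3 or PQQ-H 4) to 3 (without CON 2 or PQQ-L 4). Of the genes that act with galectins, 0 were called, and from 0 to 1 with 1 library left out. These were B3gnt2 in PQQ-L vs. CON without CON 2, and Cd44 in PQQ-H vs. CON without PQQ-L 5. Cd44 was again the 1 gene called with the striatal covariate, in PQQ-H vs. CON. Without CON 2, the CON libraries left are CON 1 and CON 3, both rich in striatal RNA. The fit of the libraries named with R alone was chosen after seeing the data and rests on the spread of 3 PQQ-L libraries. Its only CON library is CON 1, the library with the highest striatal level. B3gnt2 was lower there in PQQ-L, and Nrp1 higher in both comparisons. Nrp1 had 1.14, 8.87 and 4.12 FPKM in CON 1 to 3, against 6.26 to 11.9 in the 5 PQQ-L libraries. Lgals3bp stayed below an adjusted p of 0.05 in PQQ-H vs. CON in all 12 fits with 1 library left out and in 13 of the 17 other alternatives. The sign turned with the choroid plexus covariate, to 0.37 for Lgals3bp in PQQ-L vs. CON, and to 0.10 for Lgals3, 0.39 for Lgals3bp and 0.72 for Lgals9 in PQQ-H vs. CON. Between the doses, where no member was called in any fit, it turned for Lgals3 to 0.54 with the libraries named with L and to 0.33 with the choroid plexus covariate, for Lgals3bp to 0.017 and for Lgals8 to -0.0086 with that covariate, for Lgals9 to -0.16 without the 4 striatum-rich libraries and to -0.032 with the libraries named with R, and for Lgals1 to 0.25 with the latter. The causes were not tested. Whether the replicate numbers pair the libraries cannot be told. The deviations of same-numbered libraries correlated from -0.62 to 0.72, but the libraries also differed in tissue content, so these values do not decide it. With the number as a replicate block 0 members were called in PQQ-L and 1 in PQQ-H. Over all genes, the 65 calls in PQQ-L and 113 in PQQ-H became 112 and 170 with all genes above 0 in a library, 42 and 68 with a mean FPKM of at least 1, 17 and 31 with array quality weights, 23 and 48 with the replicate block, 1 and 5 without the 4 libraries, and 0 and 0 with the libraries named with L or the choroid plexus covariate. They became 123 and 159 with voom, 42 and 142 with the striatal covariate and 74 and 57 with only the 2 groups compared. With 1 library left out they ran from 20 (without CON 1) to 865 (without CON 2) in PQQ-L and from 47 (without CON 3) to 153 (without PQQ-H 2) in PQQ-H. Depth limits Lgals3 most, at 9 reads in 2 PQQ-H libraries.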

Other observations

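The ratio of Lgals3bp to Lgals3 FPKM, a ligand over its receptor lectin, was 6.23, 8.38 and 6.07 in CON 1 to 3. It ran from 11.2 to 24.0 in the PQQ-L libraries, and in PQQ-H it was 8.77 and 9.28 in the libraries rich in striatal RNA against 39.3 and 25.6 in the other 2. The ratio of Lgals9 to Lgals8, both tandem-repeat galectins, was 1.02, 0.660 and 1.48 in CON, 0.292 to 0.440 in PQQ-L and 0.652, 0.894, 0.239 and 0.403 in PQQ-H 1 to 4. These ratios were chosen after the data were seen and are given as values.

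With group means subtracted, the gene most like Lgals9 over the 12 libraries was Bcam, a laminin receptor of blood vessels and epithelia (r = 0.984), followed by Hadh (0.981) and Cavin1 (0.979). Tns3 (0.972) was then most like Lgals3, Sema3b (0.936) most like Lgals3bp, Kctd11 (0.942) most like Lgals1 and Chga (0.937) most like Lgals8. Bcam also ranked 3 for Lgals3 on that measure, at 0.956. The libraries share tissue content and depth, so these values describe the libraries only.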
